A study of Mus musculus with 12 samples.

Results

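The comparison described here set primary mouse microglia given the supernatant of a Th1 culture against microglia given T cell medium alone. The 8 arrays were taken by their titles from a series of 12, with 4 Th1 arrays and 4 medium arrays (called untreated, as in the sample labels), 1 of each from experiments 12, 13, 14 and 16. The other 4 arrays of the series carried microglia given Th17 supernatant. They entered the normalisation, the choice of probes and the fit, and their levels are set beside some genes below. Microglia were shaken off mixed glial cultures from the brains of newborn C57BL/6 mice, plated, and exposed for 16 h. The Th1 supernatant came from Th1 cells restimulated on antibodies to CD3 and CD28 and was mixed with an equal volume of DMEM, and the control medium, complete IMDM, was mixed in the same way. Neither group carried a transgene or deletion. The model is a cultured one: the cells had left the brain for days, and the supernatant is a mixture whose single factors were not separated here.

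Microglia are the resident macrophages of the brain. Th1 cells release interferon-gamma together with other cytokines, and interferon-gamma acts through its receptor on genes of antigen presentation and host defence. Those genes make up the best known part of the microglial answer to Th1 cells. The account below is mainly about the rest of the transcriptome. It covers the genes that went from background to a clear signal or the reverse, and the changes of middle size. It also covers signalling, metabolic and structural pathways that are not defined by interferon.

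The arrays were microglial by their markers. Of 16 markers of microglia and macrophages, 15 were measured and all 15 were above background on every one of the 8 arrays, with a summed signal of 1577650 to 1957050 on untreated and 1692800 to 1819770 on Th1 arrays. The summed signals of markers of astrocytes, oligodendrocytes, neurons, T cells, endothelial cells and fibroblasts were at most 32693 on any of the 8 arrays. The T cell markers Cd3g, Cd3d, Cd8a, Cd2 and Ifng were not kept as above background on 4 arrays of the series. The 4 T cell markers that were measured were all above background on every untreated array, and 3 of them on every Th1 array. Untreated 14 had the highest sums for oligodendrocytes, neurons and fibroblasts. Between 21486 and 25623 probes per array were well above background, with the fewest on Th1 14. Nothing in the labels ties the arrays to single animals, so the p-values measure the spread between 4 experiments.

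A gene was called where its adjusted p (limma, Benjamini-Hochberg over all genes) was under 0.01 and its change exceeded 2-fold. Of 19802 genes tested, 3044 were called (15.4%). After Th1 supernatant, 1484 were higher (7.49%) and 1560 were lower (7.88%). The median log2 fold change of all genes was -0.06, and 58.2% of genes lay within 0.5 of 0 on the log2 scale. Direction was the same in all 4 experiments for 1474 of the higher and 1556 of the lower genes. A symbol was found for 1145 of the higher and 1259 of the lower genes.

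A list of 146 tested interferon-induced and MHC genes was set apart, drawn up with earlier results of these data known. It held 127 of the 1484 higher genes (8.56%) and 1 of the 1560 lower genes. The length of the list limits this share, and genes outside the list can be interferon-induced too. The share thus does not give the size of the interferon part of the response. Most called genes changed by less than 8-fold. Among higher genes 771 (52.0%) changed by a log2 of 1 to 2, 335 (22.6%) by 2 to 3, 290 (19.5%) by 3 to 6 and 88 (5.93%) by more. Among lower genes the same bands held 1034 (66.3%), 360 (23.1%), 157 (10.1%) and 9 (0.577%). Rises thus reached further than falls, with a median size of 1.93 against 1.61 on the log2 scale. With normexp background correction of the median spot signal, the calls were 1080 higher and 990 lower.

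**Figure D1:**
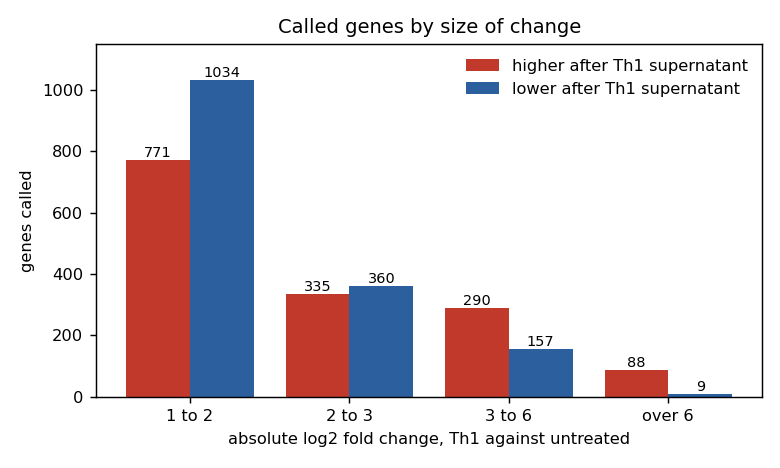
Number of called genes (y axis) in 4 bands of absolute log2 fold change between Th1 and untreated arrays (x axis), for genes higher (red) and lower (blue) after Th1 supernatant. The bands of 1 to 2 hold the most genes in both directions (771 and 1034), and the band over 6 holds 88 higher and 9 lower genes.

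Some genes crossed the line between background and signal. For 93 genes (0.47%) every kept probe was well above background on all 4 Th1 arrays and on no untreated array, and all 93 were called. Of these 93, 8 were in the interferon and MHC list. That list held 146 of the 19802 genes tested and 127 of the 1484 higher genes (8.56%). The reverse, a signal on all 4 untreated arrays and on no Th1 array, was found for 206 genes (1.04%), of which 131 were called. The Th1 arrays as a group had fewer probes above background (21486 to 23918, against 23192 to 25623 on untreated arrays), and the summed signal of neuron markers was 4065 to 5493 on Th1 and 6026 to 16192 on untreated arrays. The part of either in the number of genes that went off was not tested. The lower bounds of the 93 rises had a median of 9.99-fold and exceeded 8-fold for 53 genes. Those of the 131 called falls had a median of 3.18-fold and exceeded 8-fold for 14. A bound does not give the size of a change, so these values do not say which changes were larger. Unless the gene's own signal is higher, a bound uses the lowest signal of any probe above background on an array. On untreated 12 and untreated 14 this was the floor of 3.91 (log2 signal), so the bounds of rises depend in part on that floor.

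The Th17 arrays entered the choice of these genes only through the rule that kept probes above background on 4 arrays of the series. On them, the 93 genes that came on after Th1 supernatant were above background on no array in 66 cases. The others were above it on 1 to 3 arrays in 27 cases and on all 4 in 0. Of the 206 genes that went off, 134 were above background on all 4 Th17 arrays, 70 on 1 to 3 and 2 on none.

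Of the 8 genes named here for their rise from background, Mmp25 had the highest bound. It codes for a membrane-anchored matrix metalloproteinase of leukocytes. Mmp25 lay at the floor of 3.91 (log2 signal) on all 4 untreated arrays and at 12.87, 12.68, 12.99 and 11.55 on Th1 arrays 12, 13, 14 and 16. The groups were far apart, and the rise was at least 338-fold (adjusted p = 1.43e-07). Clec9a, a C-type lectin receptor of dendritic cells that binds actin exposed by dead cells, was at the floor on the 4 untreated arrays and at 11.76, 12.62, 12.03 and 12.30 on the Th1 arrays. It rose at least 266-fold (adjusted p = 3.77e-11), with the 4 Th1 values within 1 log2 unit of each other. Klrk1, which codes for the activating receptor NKG2D of natural killer and T cells, went from the floor to 9.57, 9.39, 9.08 and 8.52, at least 32.4-fold higher (adjusted p = 4.16e-09).

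The other genes of this kind had mixed roles. Clic5, of the chloride intracellular channel family, rose at least 134-fold, with Th1 13 at 10.42 below the other 3 Th1 arrays (11.38 to 11.48). Slfn1, a Schlafen family member, rose at least 63.5-fold. Slc6a19, a sodium-coupled transporter of neutral amino acids best known from gut and kidney, rose at least 26.0-fold, and Ddx4, an RNA helicase of germ cells, at least 26.9-fold. Egfem1 rose at least 69.8-fold. For each of these 5 the adjusted p was under 0.01, as the rule that chose them required. No Th1 array overlapped an untreated one, which the choice of on/off genes favours. Ddx4 and Mmp25 were each above background on 1 of 4 Th17 arrays, and the other 6 genes on none.

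Of the 8 genes named here for going off, Sult1a1, an enzyme that attaches sulfate to phenols, had the highest bound. Its log2 signal was 9.55, 9.96, 10.34 and 8.78 on untreated arrays 12, 13, 14 and 16 and 4.36, 4.61, 4.42 and 5.02 on the Th1 arrays, none of which was above background. The fall was at least 29.3-fold (adjusted p = 6.97e-07). Cd207, the lectin langerin of Langerhans cells, ranged widely in untreated microglia, at 6.64, 8.39, 9.91 and 7.43, and was at the floor on all Th1 arrays. It was at least 11.9-fold lower (adjusted p = 0.000169), and it lost its call with a floor of 50 (adjusted p = 0.0115). Smpd3, the neutral sphingomyelinase that makes ceramide at the inner membrane, was at 8.71, 7.50, 5.91 and 8.83 and fell to the floor, at least 9.33-fold (adjusted p = 0.000289; 0.0226 with a floor of 50). Both genes were thus most uneven among the untreated arrays, in opposite directions on untreated 14.

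Lox, lysyl oxidase, the enzyme that cross-links collagen and elastin, was at least 11.4-fold lower. Its 4 untreated values were 7.37 to 8.38, and its Th1 values reached at most 4.64. Zfyve28, an endosomal protein with a lipid-binding FYVE domain, was at least 17.7-fold lower, and Shisa9, an auxiliary protein of AMPA receptors, at least 13.4-fold lower. Myadml2 was at least 22-fold lower, and Tcim fell from 8.84 on average to the floor on all Th1 arrays. A second probe gave smaller falls for Myadml2 (-1.96 on the log2 scale), Tcim (-1.88) and Lox (-2.44), and 1 of the other 2 probes of Zfyve28 gave -3.16. All 8 genes were above background on all 4 Th17 arrays.

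**Figure D2:**
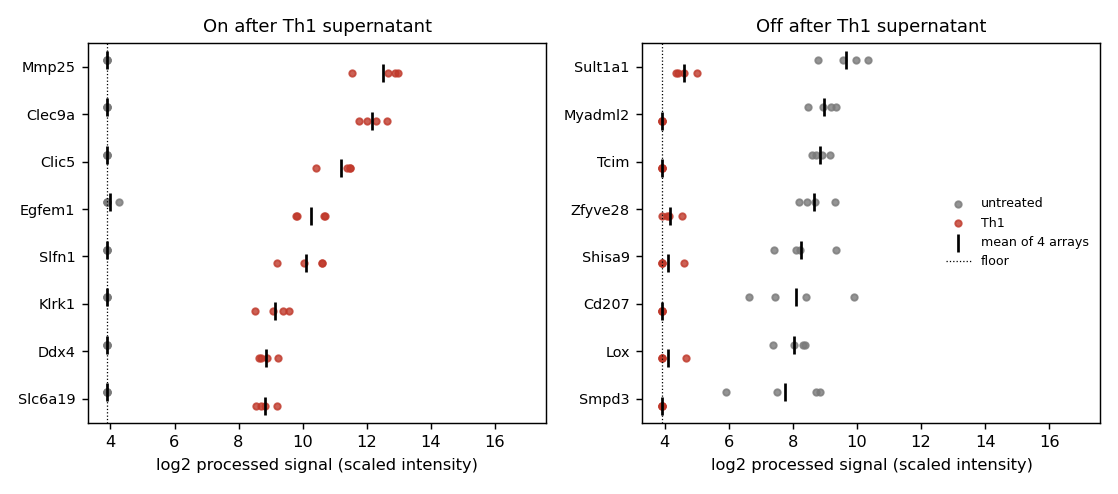
Log2 processed signal (x axis) of 16 genes on the 4 untreated (grey) and 4 Th1 (red) arrays, with black bars for the mean of 4 arrays and a dotted line at the floor of 3.91. On the left are 8 genes above background on Th1 arrays only and on the right 8 genes above background on untreated arrays only, and the 2 groups do not overlap for any of them.

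Changes of 8-fold to 64-fold in genes that were clear on all 8 arrays took in surface molecules and signalling proteins. Cd86, a co-stimulatory ligand for T cells, was at 10.56, 10.65, 10.51 and 10.32 on the untreated arrays and at 14.90, 14.66, 14.69 and 14.51 on the Th1 arrays. The groups lay far apart, and the rise was 4.18 ± 0.15 (adjusted p = 4.43e-09). Values of this form, here and below, are log2 fold change ± SE, with n = 4 arrays per group. The SE came from the fit of all 12 arrays. Cd38, a surface enzyme that consumes NAD, rose by 5.97 ± 0.28 (adjusted p = 4.95e-08). Lrrc8c, a subunit of the volume-regulated anion channel, went from 6.63, 6.79, 6.47 and 6.57 to 11.94, 11.93, 11.98 and 11.21, a rise of 5.15 ± 0.20.

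Tnik, a kinase of the Wnt and JNK pathways, rose by 3.72 ± 0.13, Ccno, a cyclin known from cells with many cilia, by 3.8 ± 0.17, and Armcx6, an armadillo repeat protein, by 4.78 ± 0.19. AA467197 rose by 5.30 ± 0.20 and 1600014C10Rik by 3.91 ± 0.16. The adjusted p of these 8 genes was at most 4.95e-08.

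Lower genes of the same size class were named by the same rule. Igfbp4, which binds insulin-like growth factors outside the cell, fell from 11.53, 11.57, 12.06 and 11.20 to 7.53, 7.62, 7.40 and 7.72, a change of -4.02 ± 0.16 (adjusted p = 1.13e-08). Dhrs3, which reduces retinal to retinol, was one of the brighter genes and went from 16.83, 16.88, 16.50 and 16.74 to 12.85, 12.67, 13.16 and 13.41, a change of -3.71 ± 0.17. No Th1 value came near an untreated one in either gene. Ptchd1, a Patched-domain protein, changed by -4.37 ± 0.17, Pcp4l1 by -4.15 ± 0.19 and the caveolin Cav2 by -3.04 ± 0.14. Ank, a pyrophosphate transporter, changed by -3.44 ± 0.17, and Dtx4, a ubiquitin ligase of the Deltex family linked to Notch, by -3.26 ± 0.17. Morc4 changed by -3.65 ± 0.18 by its brightest probe and by -0.58 by another (adjusted p = 0.196). The other 7 had an adjusted p of at most 1.18e-07.

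Of the rises below 8-fold, those with the smallest p are given. Lap3, a leucine aminopeptidase, was at 13.32, 13.29, 13.26 and 13.35 in untreated microglia and at 16.15, 16.14, 16.20 and 15.86 after Th1 supernatant, a rise of 2.78 ± 0.12 (adjusted p = 1.7e-08). Flot1, a scaffold of membrane microdomains, rose by only 1.88 ± 0.09, with every Th1 value between 14.20 and 14.33 and every untreated value between 12.32 and 12.42. Sting1, the adaptor that answers cyclic dinucleotides made on cytosolic DNA, rose by 2.57 ± 0.13. Xkr8, a scramblase that exposes phosphatidylserine, rose by 2.83 ± 0.14, and Rab43, a GTPase of vesicle transport, by 2.61 ± 0.13. Farp2, an exchange factor for small GTPases, rose by 2.82 ± 0.15, the poly-ADP-ribose polymerase Parp3 by 2.78 ± 0.15, and Csf2rb2, a receptor chain for interleukin-3, by 1.99 ± 0.11.

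The falls below 8-fold with the smallest p were those of the scavenger receptor Colec12 (-2.95 ± 0.13), the tetraspanin Cd9 (-2.68 ± 0.14), the growth factor Igf1 (-2.45 ± 0.14) and Daglb, a lipase that releases the endocannabinoid 2-arachidonoylglycerol in microglia (-2.02 ± 0.11). Igf1 was among the brightest genes here, at 16.72, 16.76, 16.61 and 16.49 in untreated and 13.97, 14.02, 14.22 and 14.55 in Th1 microglia, and 2 of its other 3 probes gave larger falls (-3.54 and -3.82). Its binding protein Igfbp4 and, less so, its receptor Igf1r (-1.74 ± 0.20) were also lower. Cyren, a regulator of DNA end joining, changed by -2.56 ± 0.15, the membrane protein Mpzl1 by -2.73 ± 0.17, 2810025M15Rik by -2.57 ± 0.13 and 2610203C22Rik by -2.10 ± 0.13. The adjusted p of these 8 falls was at most 3.56e-07.

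**Figure D3:**
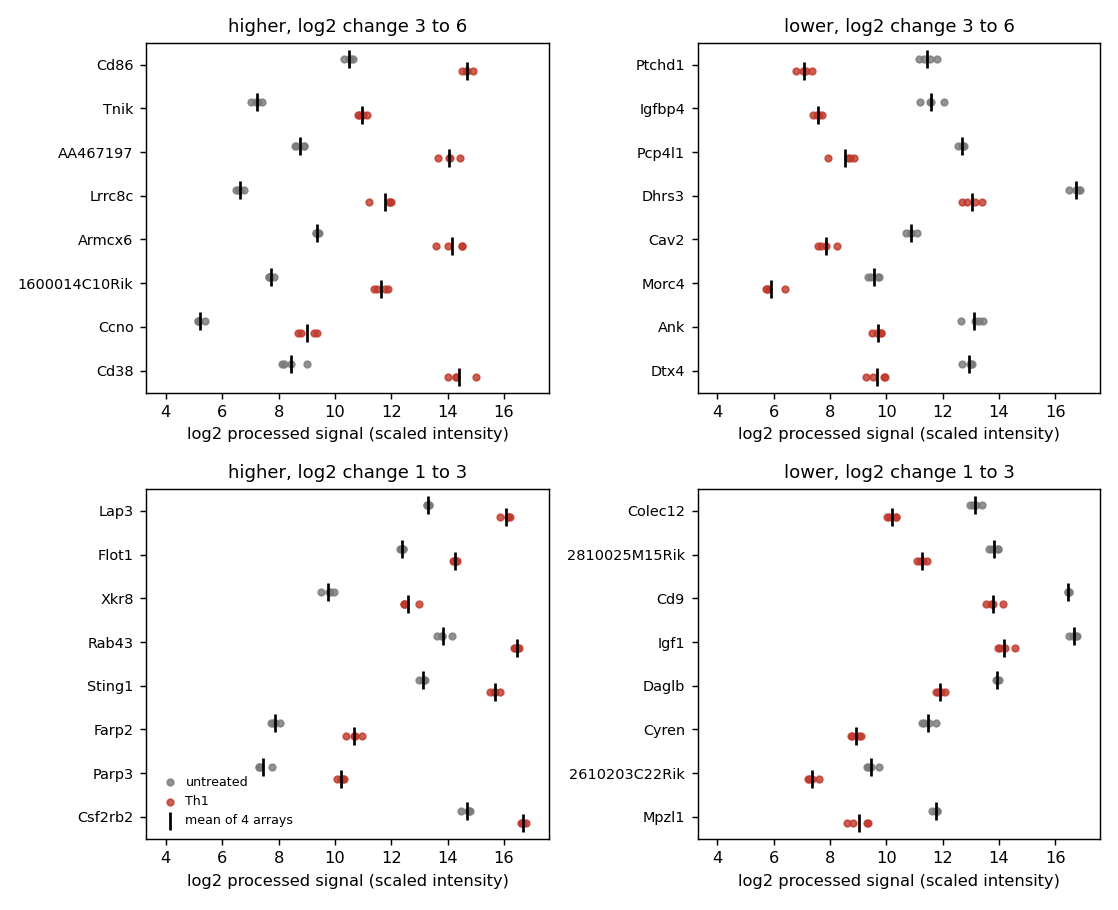
Log2 processed signal (x axis) of 32 genes that were above background on all 8 arrays, with untreated arrays in grey, Th1 arrays in red and the mean of 4 arrays as a black bar. The upper panels hold genes with an absolute log2 fold change of 3 to 6 and the lower panels those of 1 to 3, with higher genes on the left, and in each of the 32 the groups are apart.

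The levels of these 48 genes on the Th17 arrays are set beside them as a description, since the genes were chosen on the same Th1 arrays. All 24 higher genes were above their Th17 level, by 1.64 to 8.27 on the log2 scale, and all 24 lower genes were below it, by -1.81 to -4.96 in limma's Th1 minus Th17 contrast, which shares the Th1 arrays with the contrast that chose them. Between Th17 and untreated arrays the same higher genes differed by -0.27 to 1.26 (the largest being Cd38) and the lower genes by -0.57 to 0.38.

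Promoters of the genes tested were read from RefSeq (GRCm38.p6), from 250 bases before to 50 bases after each start, for 11159 of the tested genes (14068 promoters). The GAS pattern TTCNNNGAA is the pattern of the interferon-gamma activated sequence, and GAAANNGAA is the core of the interferon-stimulated response element (ISRE); both were searched on both strands. The ISRE core stood in 7.63% of all promoters tested and in 48.2% of those of higher genes in the interferon and MHC list. Outside that list it stood in 12.3% of promoters of higher genes (95% Wilson interval 10.4% to 14.4%, counting error only) and in 6.19% of those of lower genes (5.0% to 7.63%). It was found in 11 of 59 promoters of genes that came on after Th1 supernatant (18.6%) and in 5 of 136 of those that went off (3.68%).

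GAS stood in 7.26% of all promoters, in 20.9% of those of higher genes in the interferon and MHC list, in 8.6% of those of higher genes outside the interferon list and in 6.03% of those of lower genes, and the stricter form TTCCNGGAA in 1.27%, 7.27%, 1.84% and 0.773%. Of genes that went off, 13.2% of promoters held GAS (8.54% to 19.95%), and of those that came on 8.47% (3.67% to 18.4%). The ETS and PU.1 site GAGGAAGT stood in 3.17% of all promoters, 4.73% of higher and 3.79% of lower ones, and the E-box CACGTG in 9.41%, 8.41% and 9.28%. Several promoters can belong to 1 gene, no share was tested, and a match is only a match of letters.

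**Figure D4:**
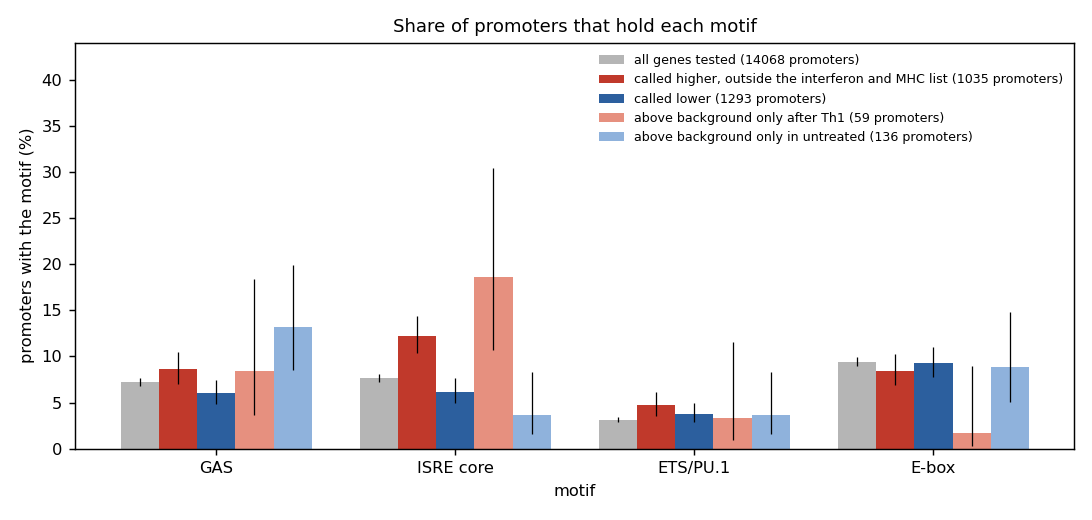
Share of promoters (y axis, %) that hold each of 4 letter patterns (x axis), for all genes tested, genes called higher outside the interferon and MHC list, genes called lower, and genes above background in 1 group only; lines are 95% Wilson intervals for counting error. The ISRE core is found in 12.3% of promoters of higher genes and 6.19% of those of lower genes, against 7.63% of all.

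Stretches before the start of named genes show where such letters lie. They are given 5′ to 3′ on the strand of the gene, with the matched letters in capitals (the reverse complement where the match is on the other strand), and are a selection. Of the named genes, 5 higher and 10 lower ones held the ISRE core before the start, and 8 higher and 4 lower ones held GAS. The first 4 belong to genes that rose and the next 2 to genes that fell, all with the ISRE core, and the last 3, all of genes that rose, hold GAS.
Klrk1, chr6:129623894-129623922, minus strand: ctcaaacatcTTCACTTTCagttccaatt
Esr1, chr10:4611767-4611795, plus strand: ttattgcaagGAAAGAGAAagtgggttgg
Pnp, chr14:50944271-50944299, plus strand: tctaccctgcTTCTCTTTCcgcacaggcc
Rab20, chr8:11478811-11478839, minus strand: agcaggcagaGAAAGGGAAtttggggaag
Plxnc1, chr10:94944945-94944973, minus strand: ttcacaatggGAAAGTGAAacgcacaagc
Cd9, chr6:125494869-125494897, minus strand: cactgagggtGAAACCGAAgtcccagaac
Sod2, chr17:13007644-13007672, plus strand: tctccagggtTTCCCAGAAgcaggagtag
Batf3, chr1:191098165-191098193, plus strand: gccacgtgacTTCCACGAAgagcgggggc
Armcx6, chrX:134751640-134751668, minus strand: gataaggcatTTCCCCGAAgaagaaagtg

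Pathways not defined by interferon were followed through 32 hand-made gene lists with 658 measured entries. Members such as Eif2ak2, Irf8, Cmpk2 and Samhd1 were not screened for induction by interferon. A rise of a list member is therefore not shown to lie outside the interferon response. Each list is described by its called members and its median beside the background of 15.4% called and a median of -0.06 over all genes. In 22 lists a larger share than 15.4% was called, and 25 lists had called members in both directions. The lists were drawn up with earlier results of these data known, including genes the paper names as changed in microglia. A share above the background is thus a description of the members and not a test of a pathway.

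Transcription factors of the myeloid lineage changed at a few points only. Of 26 measured, Batf (3.01 ± 0.15), Batf3 (2.17 ± 0.26) and Irf8 rose, and Cebpa, a factor of myeloid differentiation (-2.95 ± 0.26), Mef2c (-2.12 ± 0.22) and Bhlhe41 fell, with a list median of 0.17. Spi1, which codes for the lineage factor PU.1, was at 0.13 ± 0.13 (adjusted p = 0.446). Cebpa and Mef2c were lower, and Batf and Batf3 higher, in all 4 experiments, as the rule that named these genes required.

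Nuclear receptors, transcription factors switched by ligands, had a called share of 50% (6 higher and 4 lower of 20 measured, median 0.40). Vdr, the vitamin D receptor, came on from the floor on all untreated arrays to 8.39, 8.63, 8.90 and 8.42, at least 22.1-fold (adjusted p = 2.42e-10). Esr1, the oestrogen receptor, came on in the same way to 7.18, 6.77, 7.03 and 7.27, at least 7.67-fold, and was above background on 2 of 4 Th17 arrays. Ahr, Rara, Ppard and Rarg also rose. Pparg, a regulator of lipid storage genes, changed by -3.35 ± 0.31 and Nr4a1, an immediate-early orphan receptor, by -2.69 ± 0.53 (adjusted p = 0.00171), and Nr1d1 and Rora fell as well. Nr3c1, the glucocorticoid receptor, was at 0.30 ± 0.17 (adjusted p = 0.17).

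Enzymes that mark chromatin changed in 6 of 24 cases. Kat2b, an acetyltransferase (1.42 ± 0.26), and Kdm6b, a demethylase of histone H3 (1.30 ± 0.26), rose. Hdac9 (-1.75 ± 0.19), Dnmt3b (-1.40 ± 0.25), the methyltransferase Ezh2 (-1.30 ± 0.23) and Hdac5 fell, with a list median of -0.06. Kdm6b lost its call without experiment 14 (adjusted p = 0.0184), and the other 2 probes of Dnmt3b gave -0.37 and -1.03. Of 13 genes of the clock list, Nfil3 alone was called (1.56 ± 0.29), and the median was -0.07. That list did not hold Nr1d1 and Rora, which fell and were counted with the nuclear receptors. Arntl, the core clock activator BMAL1, was at -0.93 ± 0.14 (adjusted p = 0.000295), just short of 2-fold, and passed it without Th1 14 (-1.03) or without untreated 12 (-1.02). With experiment as a block, 2 clock genes were higher and 1 lower.

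Feedback regulators of MAP kinases had more called falls than rises. Of 18 measured members, 8 were lower and 2 higher, against 7.88% and 7.49% of all genes, and the median was -0.78 (-0.90 to -0.59 over the 4 experiments, and -0.65, -0.67 and -0.90 within slides 1, 2 and 3). That median was -0.51 with a floor of 50, -0.38 with normexp correction, -0.61 without Th1 16 and -0.53 without untreated 14. Dusp4, a nuclear phosphatase of ERK and JNK, fell from 10.66, 9.94, 10.05 and 10.95 to 4.81, 3.91, 6.14 and 5.22, a change of -5.38 ± 0.49 (adjusted p = 6.69e-06), and was above background on 3 of 4 Th1 arrays. Dusp10, which acts on p38 and JNK, went the other way, from 5.39 to 9.33 on average (3.94 ± 0.25). Dusp1, the inducible founding member, changed by -1.55 ± 0.27 and the Ras inactivator Rasa1 by -1.97 ± 0.15. Dusp6, Spry1, Dusp5 and Dusp3 fell too, and the kinase gene Braf rose. Dusp14, at -1.90 ± 0.41, was above background on 1 of 4 Th1 arrays and lost its call without Th1 13 or Th1 14 (adjusted p = 0.0107 and 0.0106). It was at -0.95 with a floor of 50 and at -0.53 with normexp correction, and was called in neither. Without filter on dim probes, with a floor of 50 or with normexp correction, 5 members were lower. The count of higher members was 4 without untreated 13 or untreated 14, and 1 without Th1 14 or untreated 12.

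Phosphoinositide signalling had 6 higher and 4 lower of 22 genes (median 0.04). Prkcq, the protein kinase C theta of T cell signalling, came on to 9.17, 8.23, 8.97 and 7.99, at least 20.4-fold, with untreated 16 at 4.81 and the other untreated arrays at the floor. Prkcb, protein kinase C beta, changed by -2.65 ± 0.29, and Pik3cg, the gamma catalytic subunit that answers chemoattractant receptors, by -1.47 ± 0.22. Plcb4, a phospholipase C, went off, at least 3.96-fold, and was not called with a floor of 50 (-0.86 on the log2 scale) or with normexp correction (-0.66). Plcd1, Plcl2, Pik3r6 and Pik3cd also rose, and Prkch fell.

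Growth factors changed in opposite directions by gene. Csf1, which codes for the macrophage growth factor M-CSF, went from 6.97 to 10.47 on average (3.50 ± 0.45), and Pdgfc from 8.84 to 12.98 (4.13 ± 0.48). Csf1r, the receptor for M-CSF, was at -0.19 ± 0.11 (adjusted p = 0.209) by its brightest probe, and its other 2 probes gave -0.71 and -0.80. Igf1, Igf1r and Pdgfa fell and Axl rose, which made 3 higher and 3 lower of 20, with a median of 0.08.

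Wnt components were also split, 3 higher and 3 lower of 19 (median -0.37, -0.13 with a floor of 50 and -0.15 with normexp correction). The receptor Fzd1 rose by 4.02 ± 0.45 and the ligand Wnt5b by 2.37 ± 0.33. Sfrp1, a secreted Wnt inhibitor, rose by 3.16 ± 0.48 but was above background on 1 of 4 untreated arrays, and lost its call with a floor of 50 (adjusted p = 0.0143). Fzd4 (-2.14 ± 0.22), Tle1 and the signal carrier beta-catenin, Ctnnb1 (-1.22 ± 0.13), fell. Ctnnb1 was at -0.99 with 75th percentile scaling alone. Fzd4 was at -0.76 with normexp correction and was not called there.

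Of 24 TGF-beta and BMP genes, 2 were lower and 0 higher (median -0.20): the receptor Tgfbr1 (-1.94 ± 0.22) and the inhibitor Smad7 (-1.16 ± 0.25). Smad7 was not called without untreated 13 (adjusted p = 0.0101), and the ligand Tgfb1 was at -0.28 ± 0.19 (adjusted p = 0.27). Without untreated 16, 4 members were lower, without Th1 13 or Th1 14, 1 was higher, and with experiment as a block 4 were lower and 1 higher. Of 14 Notch genes, Notch2 (1.16 ± 0.17) was higher and the target Hey1 (-2.37 ± 0.36) lower, with a median of -0.45. Notch2 changed by under 2-fold when its 2 probes were averaged (0.99), and the 2 probes of Notch1 disagreed in sign (-0.24 and 1.13). Without Th1 16, untreated 13 or untreated 14, 2 Notch genes were higher, without untreated 12, 2 were lower, and without Th1 14, or with experiment as a block, 3 were lower.

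Of 31 genes of actin and motility, 4 rose and 2 fell (median -0.13). Myh10, non-muscle myosin heavy chain IIB, went from 6.12 to 11.29 on average, the furthest of the list (5.18 ± 0.30, adjusted p = 2e-07). The exchange factors Arhgef5 (2.53 ± 0.38) and Arhgef3 (2.08 ± 0.15) and the actin regulator Vasp rose, and Dock8 (-1.21 ± 0.18) and Arhgef6 fell, 1 of these 2 being lost without untreated 14. Actb was at 0.12 ± 0.08 (adjusted p = 0.236). Its values after quantile normalisation were tied or nearly tied, at 18.96 on all Th1 arrays and untreated 14 and 18.80 on the other untreated arrays. They therefore say little about whether Actb changed.

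Among 21 adhesion genes, 3 rose and 4 fell (median -0.37, and 2 falls with 75th percentile scaling alone). Cd47, a signal against engulfment, rose by 1.44 ± 0.20, and its receptor Sirpa fell. Alcam changed by -2.32 ± 0.27, and Cd81, a tetraspanin like Cd9, fell. Tspan7 rose.

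Of 19 guidance genes, 2 rose and 2 fell (median -0.17). Sema4a rose by 2.64 ± 0.21 and its family member Sema4b by 1.24 ± 0.29, while the semaphorin receptor Plxnc1 changed by -2.49 ± 0.22 and the netrin receptor Unc5b by -1.36 ± 0.31. Plxnd1 was at -0.92 ± 0.23 (adjusted p = 0.00745), and passed 2-fold without Th1 16 (-1.004) or untreated 13 (-1.03). Sema4b was not called without Th1 12, Th1 14 or untreated 13, nor Unc5b without Th1 13, Th1 14, untreated 12 or untreated 16, and in each of these fits 1 member remained in that direction.

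Of 17 matrix genes, 4 fell and 1 rose (median -0.45, but -0.01 without untreated 14, -0.20 without Th1 13 and -0.17 without experiment 14). The protease inhibitor Serpine2 (-2.54 ± 0.23), the protease Adamts1 (-2.54 ± 0.33), the laminin chain Lamb2 (-1.53 ± 0.15) and Adam8 fell. Thbs1, thrombospondin 1, rose by 1.59 ± 0.34 and was not called without Th1 12 or untreated 12 (adjusted p = 0.0105 and 0.0101). Fn1, fibronectin, was at 0.71 ± 0.77 (adjusted p = 0.48).

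Several enzymes at the entry of glycolysis rose. Of 23 measured genes 6 rose and 2 fell, with a median of 0.52 (0.24 to 0.73 over the 4 experiments). The hexokinases Hk3 (2.12 ± 0.27) and Hk2 (1.90 ± 0.30), and all 3 phosphofructokinase genes, Pfkp (2.91 ± 0.16), Pfkl and Pfkm, rose, as did Tpi1. Pfkp went from 10.74 to 13.64 on average. Eno2 (-1.53 ± 0.35) and Ldhb fell, and Eno2 was not called without untreated 12 or untreated 16 (adjusted p = 0.0141 and 0.0135). The glucose transporter Slc2a1 was at 0.99 ± 0.38 (adjusted p = 0.0509). Hif1a, the oxygen-sensitive factor that drives many such genes, rose by 1.95 ± 0.22. Of 17 measured genes of the hypoxia list it was the single higher one, and the list median was -0.03. Egln3 (-2.24 ± 0.54, adjusted p = 0.00563) was the single lower one. The glycolysis genes that rose were counted in their own list, and a part of Hif1a in their rises was not tested. A second hypoxia gene was higher without Th1 16, untreated 14 or untreated 16, or with experiment as a block, and Egln3 was not called without Th1 12, Th1 13, Th1 16, untreated 13, untreated 14 or untreated 16 (adjusted p = 0.0114 to 0.0182).

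In the tricarboxylic acid cycle, 2 of 22 genes fell and 1 rose (median 0.09), and the 2 were the isocitrate dehydrogenases Idh1 (-2.24 ± 0.27) and Idh2 (-1.49 ± 0.22). Both make NADPH, in the cytosol and in mitochondria. Pdk3, a kinase that shuts pyruvate dehydrogenase, rose by 1.95 ± 0.16, and citrate synthase, Cs, was at 0.12 ± 0.11 (adjusted p = 0.424). A second gene was higher without Th1 12, Th1 16 or untreated 14.

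Fatty acid genes had 6 lower and 2 higher of 25 (median -0.07). The binding protein Fabp4 (-3.36 ± 0.80), the activating enzyme Acsl3 (-2.42 ± 0.37), the lysosomal lipase Lipa (-2.39 ± 0.22), the droplet coat Plin2, the lipase Lpl and the scavenger receptor Cd36 fell. Acsl1 rose by 2.60 ± 0.15, and Dgat2 rose as well. The oxidation enzyme Cpt1a was at -0.07 ± 0.20 (adjusted p = 0.79). Fabp4 was called with an adjusted p of 0.00532 and was not called without Th1 12, Th1 13, untreated 12, untreated 13 or untreated 16 (0.013 to 0.0172).

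Membrane lipid enzymes had 6 higher and 3 lower of 20 (median 0.18, 0.43 with 75th percentile scaling alone). Ugcg, which makes glucosylceramide, rose by 2.60 ± 0.27, the ceramide synthase Cers6 by 2.56 ± 0.23, the sphingomyelinase-like Smpdl3b by 2.36 ± 0.23 and Pla2g4a, the phospholipase that frees arachidonic acid, by 1.95 ± 0.26. Lpcat2 and Lpcat1 rose too, Sgms1, Napepld and Smpdl3a fell, and Sgpp1 was at 0.03 ± 0.16 (adjusted p = 0.9).

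Nucleotide salvage and synthesis had 7 higher and 3 lower of 24 genes (median -0.04). Upp1, uridine phosphorylase, went from 6.20 to 13.91 on average, a rise of 7.71 ± 0.16 (adjusted p = 5.95e-11), and a second probe gave 4.65. Samhd1, a triphosphohydrolase that lowers the pool of dNTPs, rose by 3.23 ± 0.22 and the purine nucleoside phosphorylase Pnp by 2.61 ± 0.23. Cmpk2, Dck, Entpd1 and Ada also rose. Tk1, Rrm2 and Ctps, enzymes of DNA precursor synthesis, fell. Hprt, often used as a reference gene, was at -0.50 ± 0.11 (adjusted p = 0.00264), short of 2-fold.

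Amino acid enzymes were even in both directions, 3 higher and 3 lower of 22 (median 0.00). Psat1, of serine synthesis (2.21 ± 0.17), Aldh18a1, of proline synthesis (2.05 ± 0.25), and Mthfd2 rose. Glul, glutamine synthetase (-2.23 ± 0.29), the glutamine transporter Slc1a5 (-1.82 ± 0.25) and Ahcy fell, and Shmt2 was at -0.59 ± 0.16 (adjusted p = 0.00893). Gch1, the first enzyme of tetrahydrobiopterin synthesis, rose by 1.44 ± 0.17 and was the single called gene of 13 biopterin and polyamine genes, whose median was -0.58. Without Th1 16, 2 of these were lower, and without untreated 14, 1.

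Transporters and vesicle genes included several rises. Slc7a2, a carrier of arginine, rose by 4.57 ± 0.44, from a signal above background on 1 of 4 untreated arrays to 7.83, 9.03, 9.24 and 9.54. The copper carriers Slc31a2 (1.31 ± 0.18) and Slc31a1 and the zinc exporter Slc30a1 rose as well, while the zinc importer Slc39a8 (-2.06 ± 0.27), the metallothionein Mt1 (-1.58 ± 0.29) and Slc38a1 fell, with a median of 0.19 over 20 genes. Slc39a14 was at -0.23 ± 0.25 (adjusted p = 0.474).

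Of 26 autophagy and vesicle genes, 7 rose and 2 fell (median 0.27). Stx11, a SNARE of cytotoxic granule release, rose by 3.44 ± 0.25, the phagosomal Rab20 by 1.99 ± 0.19 and the sorting nexin Snx10 by 1.74 ± 0.13. Stx3, Rab27a and Snx20 rose too. Rab38 (1.73 ± 0.39) was not called without Th1 13, Th1 16, untreated 12, untreated 13 or untreated 14 (adjusted p = 0.0108 to 0.0128). Its untreated values lay at or near the floor. Rab38 rose by only 0.65 with a floor of 50 and 0.47 with normexp correction, and was called in neither. The autophagy receptor Sqstm1 and Gabarapl1 fell, 1 of these 2 being lost without any Th1 array or without untreated 12 or untreated 14. Becn1 was at 0.23 ± 0.23 (adjusted p = 0.451).

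Of 23 ion channel genes, 4 fell and 1 rose (median -0.02). Kcnj2, the inward rectifier potassium channel of resting microglia, went from 8.65, 8.57, 8.62 and 8.80 to 5.07, 4.55, 4.70 and 5.66, a change of -3.67 ± 0.23, and was above background on 3 of 4 Th1 arrays. Kcnk13, a potassium leak channel, changed by -1.26 ± 0.15, Cacna1a by -1.61 ± 0.18 and Cacna1d fell. The calcium channel subunit Cacnb4 rose by 3.16 ± 0.42, from 3 of 4 untreated arrays above background, and the proton channel Hvcn1 was at -0.31 ± 0.11 (adjusted p = 0.038).

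Redox defence showed the lowest median of the 32 lists. Of 23 measured targets of the transcription factor NRF2 and genes of glutathione, 8 were lower (13 with experiment as a block) and 1 was higher, against 7.88% and 7.49% of all genes. The median was -1.16, with -1.47 to -0.82 over the 4 experiments and -1.12, -1.78 and -0.82 within slides 1, 2 and 3. Gclc, the catalytic subunit of glutathione synthesis, changed by -2.28 ± 0.35 and lay highest on untreated 14, at 13.93 against 12.45 to 12.70 on the other untreated arrays. Nqo1, a quinone reductase, changed by -3.24 ± 0.56, was above background on 2 of 4 Th1 arrays and lost its call with a floor of 50 (adjusted p = 0.0102). The glutathione transferase Gstm1 changed by -2.23 ± 0.33. Srxn1, Cat, Gsto1, Sod1 and Txnrd1 fell too. Sod2, the mitochondrial superoxide dismutase, went the other way, from 15.84 to 18.17 on average (2.33 ± 0.22). Nfe2l2, which codes for NRF2 itself, was at -0.44 ± 0.19 (adjusted p = 0.0901).

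Other stress programmes moved less. Of 21 measured p53 targets, 3 fell and 0 rose (5 fell with experiment as a block; median -0.18): Sesn1 (-2.58 ± 0.20), Trp53inp1 (-1.50 ± 0.25) and Zmat3 (-1.28 ± 0.23), with Trp53 at -0.16 ± 0.23 (adjusted p = 0.612). Of 16 chaperone genes, Dnajb4 (-2.39 ± 0.23) and Fkbp5, a co-chaperone of the glucocorticoid receptor (-1.29 ± 0.13), fell and 0 rose, with a median of -0.16 and Hsf1 at -0.18 ± 0.09 (adjusted p = 0.117). Of 21 genes of ribosome biogenesis, Utp20 (-1.05 ± 0.20) and Nop58 (-1.01 ± 0.19) fell and the median was -0.53, with nucleolin, Ncl, at -0.75 ± 0.14 (adjusted p = 0.00107). Both calls were just past 2-fold, and neither was made without Th1 12 or without Th1 14, nor Utp20 without untreated 13 or Nop58 without untreated 16. Of 19 genes of tRNA charging and translation, Wars, the tryptophanyl-tRNA synthetase (2.10 ± 0.14), and Eif2ak2 rose and 0 fell (median 0.15).

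Protease inhibitors had 5 higher and 1 lower of 15 (median 0.28, 0.02 with a floor of 50 and 0.75 without untreated 14). Serping1, the inhibitor of complement C1, rose from 5.61, 4.61, 5.04 and 4.95 to 13.46, 12.98, 12.83 and 11.49 (7.64 ± 0.44, adjusted p = 2.05e-07), with 3 of 4 untreated arrays above background. Cst7, the cystatin F of leukocytes, rose by 6.86 ± 0.55 and Spint1 by 5.24 ± 0.52. Serpina3i rose by 6.64 ± 0.26 by its brightest probe, a value set in part by the floor, since 3 of 4 untreated arrays were at it and 1 of 4 was above background. Another probe gave 2.24; it belongs to a family of near-identical genes, so its signal may include relatives. Serpinb9 rose and Serpinb6b fell. The lower count was 2 without Th1 12 or with experiment as a block, 3 without untreated 16 and 0 without Th1 14.

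Genes first described in lymphocytes were the list with the highest median, 0.58 (0.49 to 0.88 over the 4 experiments), with 9 higher and 1 lower of 20 measured (4 lower with experiment as a block, 0 with 75th percentile scaling alone). The median was 0.06 with a floor of 50 and 0.11 with normexp correction. Slamf8 (6.10 ± 0.54), Slamf7 (5.0 ± 0.26), Cd38 and Il18bp, a decoy for interleukin-18 (4.66 ± 0.44), led it, and Cd69, Il2rg, Il18rap, Jak3 and the kinase Lyn (1.16 ± 0.18) rose as well, while Cd48 fell. Beside these, of 10 T cell markers 4 were measured and 1, Lck, was higher, and the summed T cell signal was 6873 to 8038 on untreated and 7392 to 8552 on Th1 arrays.

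**Figure D5:**
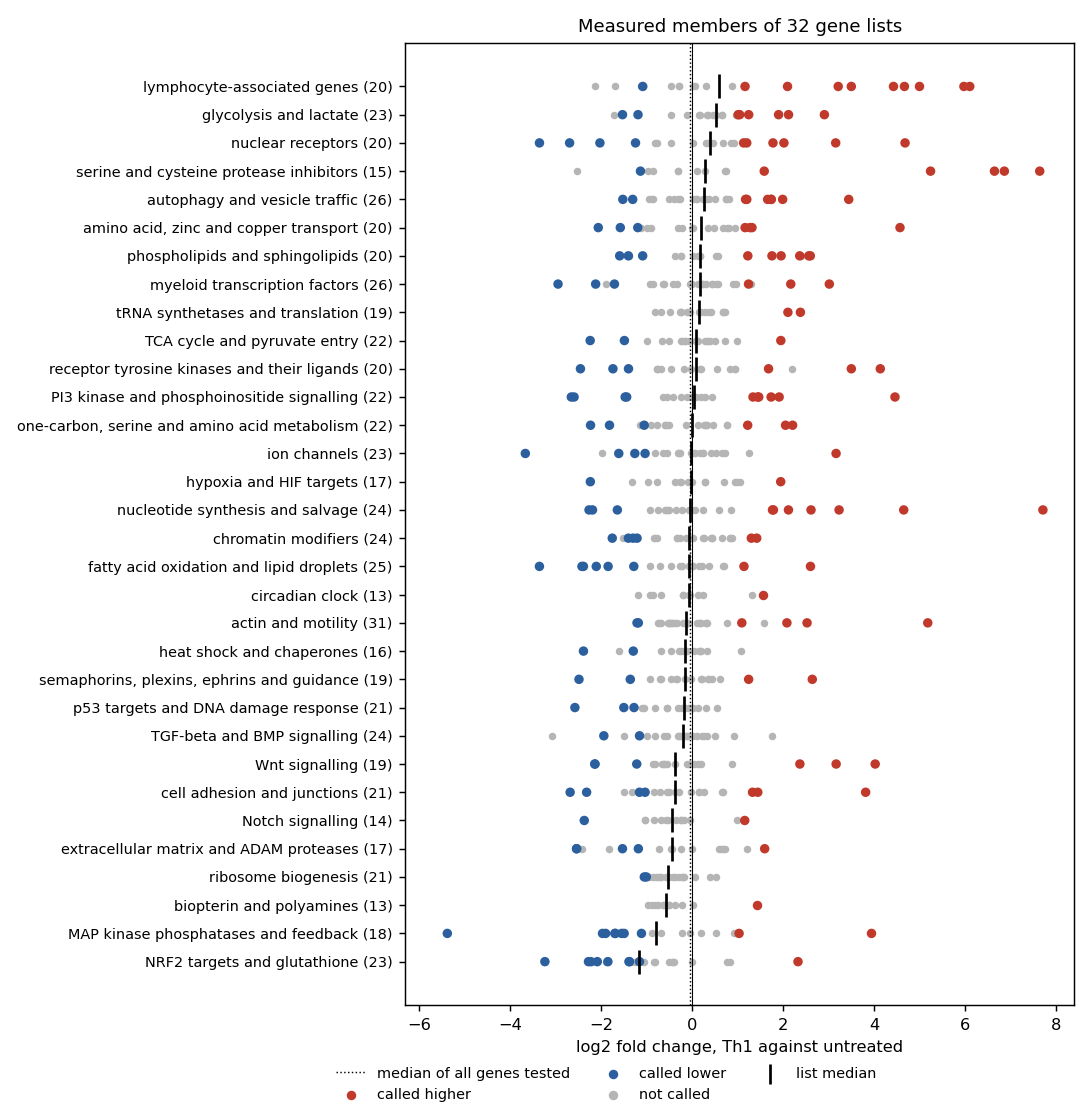
Log2 fold change between Th1 and untreated arrays (x axis) of the measured members of 32 gene lists (y axis, number measured in brackets), ordered by their median (black bar); red and blue points were called higher and lower, grey points were not called, and the dotted line is the median of all genes tested. Medians run from -1.16 for NRF2 targets and glutathione to 0.58 for lymphocyte-associated genes.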

How the data were processed

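Total RNA of each culture was labelled with Cy3 and hybridised to a one-colour Agilent mouse array, 4 arrays to a slide, on 3 slides. Per the file headers, the authors extracted spot intensity with Agilent Feature Extraction, and the processed intensity is background-subtracted. The deposited value table holds log2 values whose scale and centring are not stated; against the scanner values each column correlated at 0.999993 or above over 19915 bright probes, with column medians of -0.23 to 0.18, and it served as an alternative only. Here, control and outlier spots were dropped, spots of a probe were averaged (geometric mean), arrays were quantile normalised and scaled to a 75th percentile of 1500, values under 15 were set to 15, and log2 was taken, after the study's methods. Probes well above background on at least 4 of 12 arrays were kept (24287 of 39429), and the brightest kept probe stood for a gene, which gave 19802 genes, 70.5% with a symbol. All 12 arrays entered 1 limma fit (limma 3.58.1, R 4.3.3) with a mean per group, with Benjamini-Hochberg adjustment across the 19802 genes. On simulated data made for this comparison over 19802 genes, 200 of them changed, 91% of changes of 2 and 93% of changes of 3 on the log2 scale were recovered with 1 false call. The simulation drew noise independently for each array and changed far fewer genes than the 3044 called in the data. It held no change under 2 on the log2 scale, so it does not give the recovery of smaller changes.

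The experiment numbers in the titles pair the arrays: deviations from the group means correlated at 0.31, 0.29, 0.43 and 0.48 for equal numbers 12, 13, 14 and 16. A fit with this number as a block was an alternative, as were a slide block, other scalings, floors, filters, probe rules and thresholds, normexp background correction on the median spot signal, and leaving out each array or experiment 14. A fold bound set the bright group's mean against the higher of the dim probe's own signal and the lowest signal well above background on each dim array. The number of arrays limits the precision. Named genes were those called with 1 direction in all 4 experiments, outside the interferon list and genes described earlier: per direction, the 8 on/off genes with the highest bound, the 8 with the smallest p at a log2 change of 3 to 6 and the 8 at 1 to 3 (both above background on all 8 arrays), and up to 4 of each list by size, with each list's first gene. Genes given without a value are other called members of a list, and some members are not reported here. The lists, markers and rules were chosen with earlier results of these data known. Promoters came from RefSeq (GRCm38.p6).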

Additional observations from a re-analysis of the deposited data

Results flagged for a closer look

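Within the 2 groups, 25 of 358 sets of 4 arrays over the 179 named genes had 1 array far from the other 3, by the ratio of its gap to the whole range of the set, past Dixon's critical value for 4; chance gives about 1 set in 20. High arrays were Th1 12 for Xkr8 (0.905), Morc4 (0.879), Arhgef3 (0.887), Serpine2 (0.895), Thbs1 (0.920) and Pdk3 (0.839). They were untreated 13 for Fkbp5 (0.848), Hsf1 (0.852) and Utp20 (0.831), untreated 14 for 1600014C10Rik (0.831) and Gclc (0.832), and untreated 16 for Parp3 (0.927). Low arrays were Th1 13 for Clic5 (0.905), Th1 16 for Lrrc8c (0.936), untreated 14 for Dnmt3b (0.924) and Serpine2 (0.874), and untreated 16 for Notch2 (0.870). A ratio of 1, with the other 3 arrays at the floor, was found for Egfem1 and Prkcq (untreated 16), Shisa9 (Th1 16), Lox (Th1 14), Sfrp1 (untreated 13) and Serpina3i (untreated 14). Actb also had a ratio of 1 on untreated 14 and Th1 13, where its signals were tied or nearly tied, with group ranges of 0.15 and 0.0001 on the log2 scale.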

How the results depend on the processing

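The floor and the number of arrays limit the falls: dim genes have bounds only, and calls near 2-fold moved with single arrays. With a floor of 50, 4 lower genes passed a log2 of 6. With normexp correction, 990 genes were lower, of which 178 changed by a log2 of 2 to 3, 52 by 3 to 6 and 3 by more, and higher genes numbered 165 at 3 to 6 and 46 over 6; the cause was not tested. The stricter GAS pattern stood in 1.27% of all promoters, 1.84% of those of higher genes outside the interferon list and 0.773% of those of lower genes, being a subset of the wider pattern. Leaving out 1 array at a time gave 1367 to 1566 higher and 1397 to 1666 lower genes; by band these were 699 to 823, 310 to 357, 270 to 303 and 83 to 95 higher, and 888 to 1091, 305 to 387, 150 to 179 and 6 to 10 lower. Genes above background in 1 group only then numbered 93 to 124 after Th1 supernatant and 213 to 306 in untreated microglia, since fewer arrays had to meet the rule, and 127 and 250 without experiment 14. The replicate block, with experiment number as a term, gave 1561 higher and 1844 lower genes, changed no call of a named gene, and moved list counts only as given beside those lists. Over all settings, the 179 named genes were counted as unchanged in 3493 cases, lost the call in 80 and gained it in 7. No gene called in the reported setting reversed direction. For named genes that were not called, a change of sign was counted as unchanged. Of 640 list medians recomputed, 44 moved by more than the spread over experiments, and 5 of these changed sign, all with a median within 0.15 of 0 in the reported setting.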
